A study of Mus musculus with 6 samples.

Results

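The 53 mouse genes described here act in the DNA damage response and in DNA repair. They were taken from a list of named genes, drawn up with earlier results of these data known, and fall into 8 Fanconi anaemia genes, 17 of homologous recombination, 5 of end joining, 3 of mismatch repair, 7 of base excision and strand break repair, 7 of nucleotide excision repair and 6 of checkpoint signalling. All 53 were among the 38828 genes of the count tables, and 44 of them had enough counts to be tested. Expression was measured by RNA sequencing in Hepa1-6 cells, a mouse hepatoma line, 3 days after transfection of siRNA with a lipid reagent. The Crebl2 siRNA group (3 libraries) received siRNA against Crebl2, which encodes a CREB-like bZIP protein, and the Luc siRNA group (3 libraries) received siRNA against Renilla luciferase, which mouse cells lack. Both groups are 1 cell line carrying the same transfection, and the labels name neither the siRNA sequences nor separate cultures, so p-values measure the spread between these libraries, which may be technical. The comparison asks how expression in this liver cell model differs once Crebl2 is depleted.

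Damage in DNA is sensed by the kinases ATM and ATR, which halt the cell cycle and call in repair. Fanconi anaemia proteins unhook crosslinks between strands, and homologous recombination copies an intact sister sequence to mend breaks and broken replication forks, so many genes of both pathways are expressed most in dividing cells. End joining ligates broken ends directly. Mismatch repair corrects copying errors, base excision repair removes small damaged bases, and nucleotide excision repair cuts out bulky lesions such as those made by ultraviolet light.

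Total counts were 27082572 to 27710914 in the Crebl2 siRNA libraries and 27385328 to 29158489 in the Luc siRNA libraries. The label was checked on the targeted gene: Crebl2 stood at 29.1, 29.8 and 32.3 CPM (counts relative to library size, with TMM scaling) in Crebl2 siRNA libraries, against 114, 113 and 112 CPM in Luc siRNA libraries (log2 fold change -1.90, SE 0.0582, edgeR adjusted p = 2.83e-12). The mitochondrial share of counts was 2.23, 0.859 and 2.09% in Crebl2 siRNA libraries, against 2.31 to 2.52% in Luc siRNA libraries, so that Crebl2 siRNA replicate 2 stood apart. Of 14 hepatocyte markers, Alb stood at 517 to 573 CPM in Crebl2 siRNA libraries and 558 to 614 CPM in Luc siRNA libraries, Afp was abundant in both groups, and 4, Hnf4a among them, had no count in any library, as did Ptprc of the leukocyte markers and Tek of the endothelial ones. The main rows of Hnf4a and Tek have 0 bases of their own and that of Ptprc has 12, so these zeros say nothing of expression. Among the other hepatocyte markers without a count, the main row of Apoa2 also has 0 own bases. Those of Serpina1a and Fgg have 221 and 352, so their zeros limit expression on those bases only. The 8 leukocyte markers summed to 1.48 to 1.86 CPM in Crebl2 siRNA libraries and 1.96 to 2.37 CPM in Luc siRNA libraries. The 6 endothelial markers summed to 33.1 to 37.2 CPM in Crebl2 siRNA libraries and 19.6 to 23.1 CPM in Luc siRNA libraries, nearly all from Vwf. The 8 fibroblast markers summed to 119 to 131 CPM in Crebl2 siRNA libraries and 176 to 182 CPM in Luc siRNA libraries, nearly all from Dcn. Whether other cells play a part in the results below was not tested.

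Deposited counts appear to come mostly from exonic bases that belong to 1 transcript alone: the 9603 rows with no base of their own in GENCODE M21 held 0.0235% of counts. The 23 members with 1 deposited transcript row were all tested, whereas the 9 untested members all had more than 1 row and at most 981 bases of their own. Fancb, the X-linked core complex gene, Msh3, the mismatch recognition protein for loops, and Blm, the RecQ helicase of Bloom syndrome, had 0 counts in every library. Msh3 had 0 bases of its own and Fancb 3, so their zeros say nothing of expression. Blm had 176, and its 0 allows up to 3 counts on those bases. That is at most 0.111 CPM in a Crebl2 siRNA library and 0.11 CPM in a Luc siRNA library, a limit for those bases and not for the whole gene. Over the 3 Crebl2 siRNA libraries, against the 3 Luc siRNA libraries, Brca2, a central mediator of recombination, had 12 against 6 counts and its partner Palb2 had 8 against 4. Rad51b, which acts in recombination, had 13 against 6 counts, the scaffold Xrcc1 7 against 6, the ligase Lig3 4 against 0, and the checkpoint kinase Chek1 30 against 27. The counts of these genes were too few for a test, so a difference between the groups could be neither shown nor excluded.

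**Figure D1:**
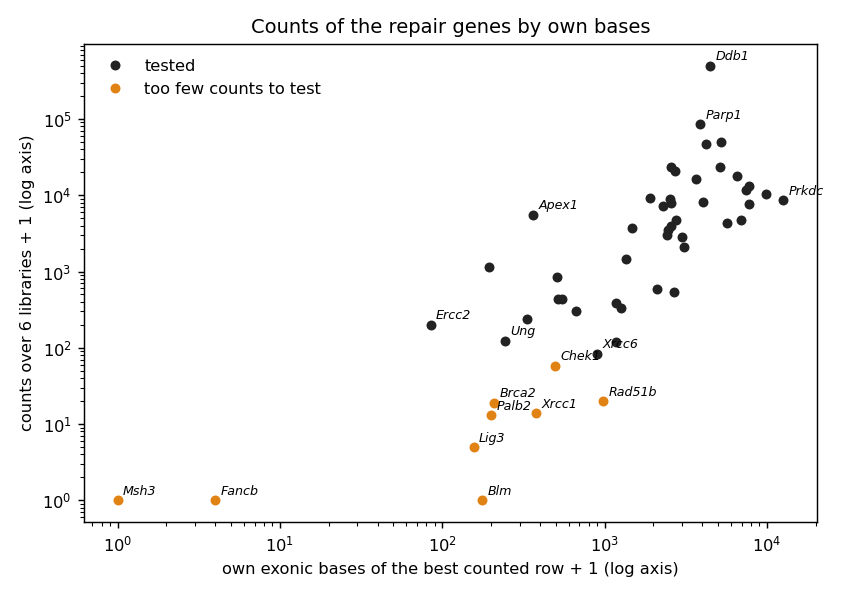
Each point is 1 of the 53 repair genes, by the exonic bases that its best counted transcript row shares with no other row (x axis, bases plus 1, log axis) and its counts summed over 6 libraries (y axis, counts plus 1, log axis). The 9 genes with too few counts to test, in orange, lie at 981 own bases or fewer and at 57 counts or fewer.

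After Crebl2 knockdown 20 repair genes were raised, by small amounts, and the 3 that were lowered, Xpc, Ddb1 and Ddb2, act in the recognition of bulky lesions. Of 44 tested members, 20 rose and 3 fell at an edgeR adjusted p under 0.05, that is 45.5% raised and 6.82% lowered. Over all 11616 genes tested, 18.8% were raised and 20.1% lowered, 38.9% being called in either direction. Of 48 tested transcript rows of the members, 21 were raised and 4 lowered, against 18% and 19.3% of all tested rows. The median log2 fold change of the members was 0.21, against 0.01 for all genes tested. The raised members changed by 1.14- to 1.99-fold, 6 of them by at least 1.5-fold (5.36% of all genes tested rose that far), and the lowered members stood at 0.682 to 0.902 of the control level. In all 20 raised members each Crebl2 siRNA library lay above each Luc siRNA library, and in all 3 lowered members each lay below. Such a gap was seen upward in 23.8% and downward in 24.9% of all genes tested, and the exact permutation test of a single gene can go no lower than p = 0.1 with 3 against 3 libraries. Against the stricter question of a change beyond 1.2-fold, 8 members rose, namely Fanci, Fancd2, Brca1, Brip1, Exo1, Prkdc, Polq and Atm, and 0 fell (6.1% raised and 7.89% lowered over all genes), the number lowered at an unadjusted p under 0.05 of that test being 1. In bulk samples a change in the number of cells of a kind and a change in RNA per cell cannot be told apart.

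**Figure D2:**
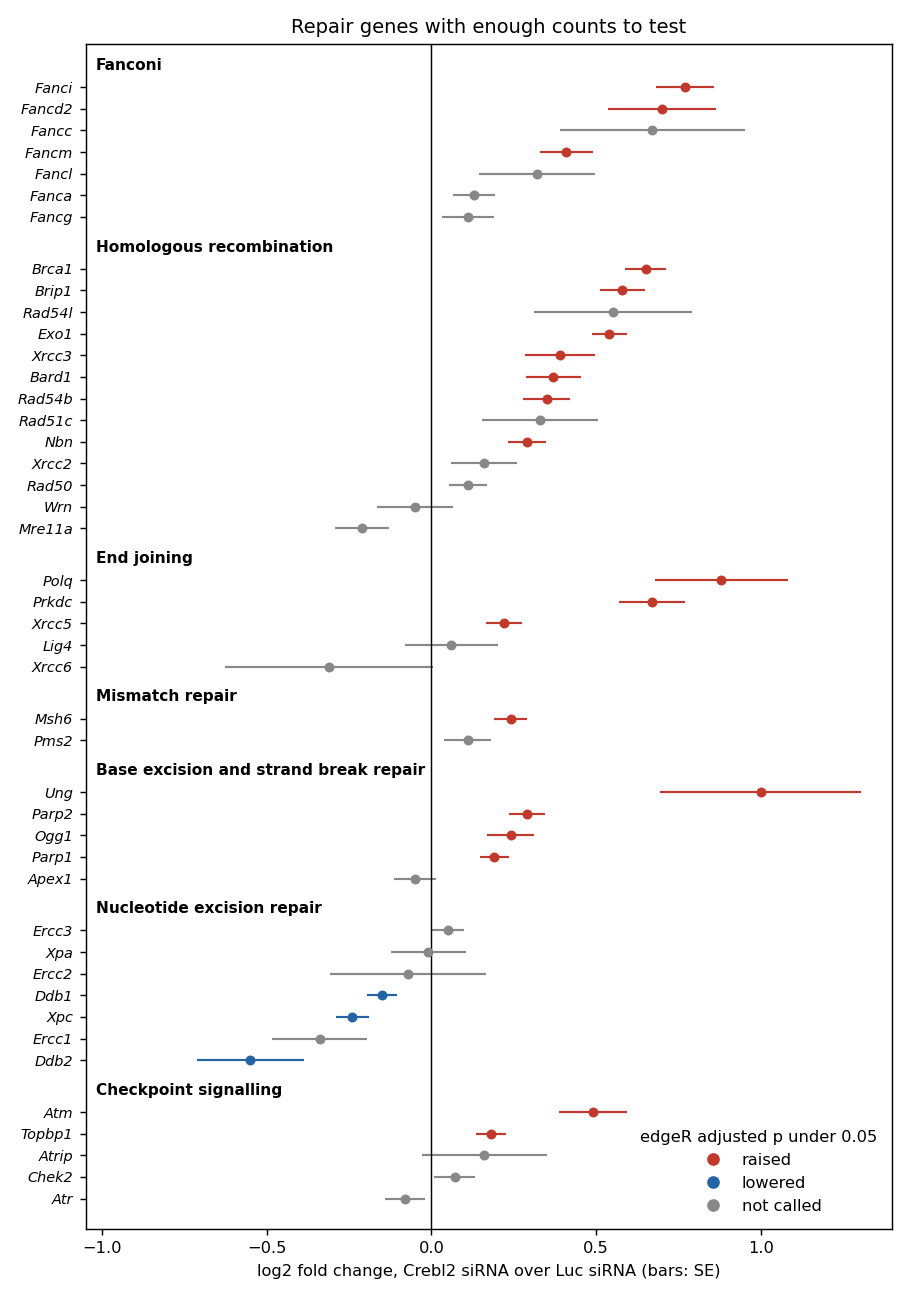
Points are log2 fold changes of the 44 tested repair genes, Crebl2 siRNA over Luc siRNA, with bars of 1 SE, grouped by pathway. Red genes were raised, blue genes lowered and grey genes not called. Called genes of 6 pathways lie right of 0, and those of nucleotide excision repair, Ddb1, Xpc and Ddb2, lie left of it.

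Raised and uncalled members of several pathways carried in their promoters a word of the kind bound by E2F factors, the regulators of genes for DNA synthesis. RefSeq (GRCm38.p6) gave a promoter window, from 250 bases before to 50 bases after the gene start, for 42 of the 53 members. The first word was TTGGCGC. The other three were TTCCCGC as well as TTCGCGC along with TTGCCGC. All could overlap and were searched on both strands. At least 1 of them was present in 23 of 42 members, 9 of 15 raised, 9 of 17 uncalled, 0 of 1 lowered and 5 of 9 untested, against 19.0% of 8333 tested genes with a window and 9.57% of all 32851 windows. The words were thus about as frequent in uncalled as in raised members. The CRE core TGACG, bound by CREB-type factors, was present in 5 of 15 raised and 10 of 17 uncalled members and in 34.6% of tested genes with a window, and the full palindrome TGACGTCA, which contains it, in 0 of 15 and 1 of 17 members and 3.5% of genes. The word TTTGAA, known from promoters of genes of late cycle phases, was present in 2 of 15 raised and 0 of 17 uncalled members, against 14.0% of tested genes with a window.

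The 9 raised members with an E2F word are shown by 30 bases around the word nearest the start, 5′ to 3′ on the strand of the gene, with the word, or its reverse complement, in capitals. Only raised members are shown, although 9 of 17 uncalled members also carried such a word. Whether the word has a part in the changes was not tested. In Bard1 (chr1:71103162-71103191, minus strand), Topbp1 (chr9:103305187-103305216, plus) and Fancm (chr12:65075538-65075567, plus) the word began 208, 129 and 54 bases before the start. In Brip1 (chr11:86201179-86201208, minus) it lay across the start. In Fanci (chr7:79392345-79392374, plus), Atm (chr9:53536638-53536667, minus), Brca1 (chr11:101551916-101551945, minus), Polq (chr16:37011785-37011814, plus) and Msh6 (chr17:87975055-87975084, plus) it began 11 to 22 bases after the start. All these distances are counted from the RefSeq start of the window. For Bard1, Fanci, Atm, Topbp1 and Msh6 that start differs from the gene start in GENCODE M21, whose coordinates are given for genes elsewhere in the text. Distances from the GENCODE start would therefore differ for these genes. In Topbp1 the capitals cover 2 overlapping words.
Brca1: gctagcgctagGCGCCAAgcggccggtttc
Brip1: aggggcgggagGCGCGAAttcatctgtgtg
Bard1: cgccgctcagtTTCCCGCtcaggaagtttg
Fanci: cgtggagtagaGCGGGAAttttggaaggat
Fancm: aaccaatcatcTTCCCGCcgcaaaatcggc
Polq: tgaagatggagGCGGGAAgatggaggcggt
Atm: tagagccggaaGCGGGAAggcgtgcgtaca
Topbp1: ccgctcggTTGGCGCGAAagtcggttcccg
Msh6: tcctcccgactTTCCCGCcagcggcggccg

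In the Fanconi pathway the paired substrates of the core ligase rose most. Fanci (chr7:79391929-79450264, plus strand, GRCm38), a member of the clamp that is ubiquitinated at crosslinks, stood at 19.9, 23.1 and 20.4 CPM in Crebl2 siRNA libraries, against 12.6, 13.1 and 11.5 CPM in Luc siRNA libraries (log2 fold change 0.77, SE 0.0872, edgeR adjusted p = 3.42e-06). Its partner Fancd2 stood at 2.79, 3.64 and 3.32 CPM, against 2.07, 1.83 and 2.1 CPM in Luc siRNA libraries (log2 fold change 0.70, SE 0.164, edgeR adjusted p = 0.00282). Neither gene overlapped between the groups, and Fancd2 rested on the 549 bases that only its counted row has. Fancm, the translocase that brings the core complex to DNA, stood at 48.3, 54.2 and 55.8 CPM in Crebl2 siRNA libraries, against 45.4, 36.3 and 37.5 CPM in Luc siRNA libraries (log2 fold change 0.41, edgeR adjusted p = 0.000777).

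Other tested subunits of the Fanconi core complex did not pass the test with all libraries. Fanca, a large core subunit, averaged 50.1 ± 3.71 CPM in Crebl2 siRNA libraries and 46.0 ± 0.324 CPM in Luc siRNA libraries (SD, n = 3 each), with a log2 fold change of 0.13. Fancg, which bridges core subunits, had a log2 fold change of 0.11, and Fancl, the ubiquitin ligase subunit, 0.32. Without Crebl2 siRNA replicate 3, Fanca (0.19, edgeR adjusted p = 0.0113) and Fancg (0.19, edgeR adjusted p = 0.0342) were called, so that 5 Fanconi members were called instead of 3. Fanca was also called with library size as the only scaling (0.17, edgeR adjusted p = 0.0393). Fancc, also of the core, was low, at 0.931, 0.865 and 0.793 CPM in Crebl2 siRNA libraries, against 0.421, 0.573 and 0.627 CPM in Luc siRNA libraries. These values did not overlap, yet the log2 fold change of 0.67 carried an SE of 0.281 and an edgeR adjusted p of 0.0685, on 72 counts in Crebl2 siRNA and 45 in Luc siRNA libraries. Its best counted row alone, with 52 counts in Crebl2 siRNA and 28 in Luc siRNA libraries, was called (log2 fold change 0.88, edgeR adjusted p = 0.0463 over 12542 rows).

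Among genes of homologous recombination, Brca1, its partners Bard1 and Brip1, and the end-resecting nuclease gene Exo1 rose. Brca1 (chr11:101488764-101551955, minus strand), which directs breaks to recombination, stood at 121, 137 and 132 CPM in Crebl2 siRNA libraries, against 89.3, 78.9 and 80.0 CPM in Luc siRNA libraries (log2 fold change 0.65, SE 0.0621, edgeR adjusted p = 5.12e-07). Bard1, its obligate partner in a ubiquitin ligase, stood at 26.0, 31.8 and 31.1 CPM in Crebl2 siRNA libraries, against 24.5, 22.7 and 21.6 CPM in Luc siRNA libraries (log2 fold change 0.37, edgeR adjusted p = 0.00217). Brip1, the helicase bound by BRCA1, stood at 34.6, 33.8 and 34.8 CPM, against 23.8, 21.5 and 23.7 CPM in Luc siRNA libraries (log2 fold change 0.58, edgeR adjusted p = 4.42e-06). All Crebl2 siRNA libraries lay above all Luc siRNA libraries for each of these partners. Exo1 stood at 91.2, 98.0 and 95.6 CPM in Crebl2 siRNA libraries, against 66.9, 63.5 and 65.2 CPM in Luc siRNA libraries (log2 fold change 0.54, SE 0.054, edgeR adjusted p = 8.11e-07).

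Of the complex that first binds broken ends, 1 of 3 subunits passed the test, against 38.9% of all genes tested, in either direction. Nbn, its signalling subunit, stood at 57.3, 57.6 and 62.6 CPM in Crebl2 siRNA libraries, against 49.1, 48.5 and 47.2 CPM in Luc siRNA libraries, and rose (log2 fold change 0.29, edgeR adjusted p = 0.00077). Rad50, the tethering subunit, overlapped between the groups at 136, 146 and 155 CPM, against 137, 129 and 140 CPM in Luc siRNA libraries (log2 fold change 0.11, edgeR adjusted p = 0.161). The nuclease Mre11a lay below in every Crebl2 siRNA library, at 17.8, 19.7 and 21.1 CPM, against 22.3, 21.3 and 24.1 CPM in Luc siRNA libraries. Its edgeR adjusted p of 0.0542 missed the threshold (log2 fold change -0.21, SE 0.0817), while its main transcript row tested alone was called (log2 fold change -0.22, edgeR adjusted p = 0.0413). Mre11a was also called without Crebl2 siRNA replicate 3 (-0.27, edgeR adjusted p = 0.0159), and Rad50 without Crebl2 siRNA replicate 1 (0.15, edgeR adjusted p = 0.0387).

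Of the factors that act later in recombination, the motor protein gene Rad54b rose, at 27.1, 25.6 and 26.4 CPM in Crebl2 siRNA libraries, against 19.4, 21.1 and 21.4 CPM in Luc siRNA libraries (log2 fold change 0.35, edgeR adjusted p = 0.000856). Its relative Rad54l, counted on 330 own bases, had 2.29, 1.4 and 1.41 CPM, against 0.982, 1.18 and 1.33 CPM in Luc siRNA libraries (log2 fold change 0.55, SE 0.24, edgeR adjusted p = 0.0818). Xrcc3, which acts in strand exchange, stood at 20.3, 23.9 and 17.2 CPM in Crebl2 siRNA libraries, against 14.3, 17.1 and 15.3 CPM in Luc siRNA libraries, the closest pair of libraries being 17.2 and 17.1 CPM. It was called (log2 fold change 0.39, edgeR adjusted p = 0.00768), but not without Crebl2 siRNA replicate 2 (0.27, edgeR adjusted p = 0.0607). The related Rad51c (0.33) and Xrcc2 (0.16) and the RecQ helicase Wrn (-0.05) did not pass the test, with log2 fold changes as given. Rad51c was called without Luc siRNA replicate 3 (0.56, edgeR adjusted p = 0.0237).

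End joining showed its steepest change in Polq, the polymerase of the alternative route that uses short homologies. Polq stood at 2.08, 3.13 and 2.60 CPM in Crebl2 siRNA libraries, against 1.65, 1.29 and 1.29 CPM in Luc siRNA libraries (log2 fold change 0.88, SE 0.202, edgeR adjusted p = 0.00237), on 217 counts in Crebl2 siRNA and 118 in Luc siRNA libraries. Prkdc (chr16:15637866-15842235, plus strand), the catalytic subunit of the DNA-dependent protein kinase, stood at 52.8, 73.5 and 65.2 CPM, against 45.3, 36.5 and 38.2 CPM in Luc siRNA libraries (log2 fold change 0.67, SE 0.1, edgeR adjusted p = 5.6e-05). Crebl2 siRNA replicate 1 was the lowest and Luc siRNA replicate 1 the highest of its group for both. Xrcc5, the larger subunit of the Ku ring that holds broken ends, stood at 143, 148 and 161 CPM in Crebl2 siRNA libraries, against 129, 130 and 130 CPM in Luc siRNA libraries (log2 fold change 0.22, edgeR adjusted p = 0.00378). The smaller Ku subunit Xrcc6 had only 37 counts in Crebl2 siRNA and 46 in Luc siRNA libraries and did not pass the test (-0.31, SE 0.316), nor did the ligase Lig4 (0.06, SE 0.141).

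In mismatch repair, Msh6, the subunit that recognises base mismatches, stood at 298, 314 and 311 CPM in Crebl2 siRNA libraries, against 271, 254 and 255 CPM in Luc siRNA libraries (log2 fold change 0.24, edgeR adjusted p = 0.000787). Pms2, which nicks the strand to be corrected, was higher by 0.11 on the log2 scale, which did not pass the test (edgeR adjusted p = 0.227).

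In base excision repair and the mending of single-strand breaks, 4 of 5 tested members rose (80%, against 18.8% over all genes tested). Parp1, the main sensor of strand breaks, stood at 548, 542 and 541 CPM in Crebl2 siRNA libraries, against 469, 483 and 475 CPM in Luc siRNA libraries (log2 fold change 0.19, SE 0.0441, edgeR adjusted p = 0.00243). The related Parp2 stood at 60.9, 58.8 and 60.3 CPM, against 48.9, 50 and 48.1 CPM in Luc siRNA libraries (log2 fold change 0.29, edgeR adjusted p = 0.000477). The groups of both sensors were apart, with SDs of 3.52 CPM in Crebl2 siRNA and 7.07 CPM in Luc siRNA libraries for Parp1.

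The calls of both glycosylases, which start base excision, were lost without some single libraries. Ung, which removes uracil, had the largest fold change of the tested members, with 0.931, 0.756 and 1.26 CPM in Crebl2 siRNA libraries, against 0.561, 0.358 and 0.553 CPM in Luc siRNA libraries (log2 fold change 1.00, SE 0.305, edgeR adjusted p = 0.0159), but this was 82 counts in Crebl2 siRNA against 41 in Luc siRNA libraries. The Ung call was lost without Crebl2 siRNA replicate 3 (0.78, edgeR adjusted p = 0.082) or Luc siRNA replicate 2 (0.81, edgeR adjusted p = 0.0838). Ogg1, which removes oxidised guanine, stood at 24.5, 25.6 and 22.8 CPM in Crebl2 siRNA libraries, against 20.1, 21 and 20.6 CPM in Luc siRNA libraries (log2 fold change 0.24, edgeR adjusted p = 0.0142). It too was not called without Crebl2 siRNA replicate 2 (edgeR adjusted p = 0.0777) or Luc siRNA replicate 1 (edgeR adjusted p = 0.0522). The endonuclease Apex1, of whose 1239 exonic bases 362 are its own, had a log2 fold change of -0.05 (SE 0.0647).

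In nucleotide excision repair 0 of 7 tested members rose by edgeR, DESeq2 or limma, and 0 lay higher at an unadjusted p under 0.05. By edgeR 3 of the 7 fell, while over all genes tested 18.8% rose and 20.1% fell. The 3 lowered members are the sensors of the global genome branch. Xpc, which finds distorted DNA, stood at 90.8, 89.4 and 89.8 CPM in Crebl2 siRNA libraries, against 103, 109 and 106 CPM in Luc siRNA libraries (log2 fold change -0.24, SE 0.0506, edgeR adjusted p = 0.00124). Ddb2, which binds ultraviolet lesions, stood at 2.11, 2.16 and 2.02 CPM, against 2.84, 2.83 and 3.58 CPM in Luc siRNA libraries (log2 fold change -0.55, SE 0.162, edgeR adjusted p = 0.0124), on 175 counts in Crebl2 siRNA and 257 in Luc siRNA libraries. Ddb1, the adaptor that joins DDB2 to a ubiquitin ligase and also serves many other ligase complexes, stood at 2913, 2810 and 2783 CPM in Crebl2 siRNA libraries, against 3100, 3174 and 3156 CPM in Luc siRNA libraries (log2 fold change -0.15, SE 0.045, edgeR adjusted p = 0.0148). All Crebl2 siRNA libraries lay below all Luc siRNA libraries for these sensors. The Ddb2 call was lost without Luc siRNA replicate 3 (-0.44, edgeR adjusted p = 0.0816). The Ddb1 call was lost without Luc siRNA replicate 2 (edgeR adjusted p = 0.054) or 3 (0.0636) and with library size as the only scaling (-0.10, edgeR adjusted p = 0.0704), whereas the Xpc call held in each of these. Without Luc siRNA replicate 3, Xpc alone of the members was called lower.

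The members that act in later steps of nucleotide excision did not pass the test. The incision subunit Ercc1 lay below in every Crebl2 siRNA library, at 4.94, 5.01 and 3.35 CPM, against 5.82, 5.38 and 5.65 CPM in Luc siRNA libraries (log2 fold change -0.34, SE 0.145, edgeR adjusted p = 0.0739). It was called without Crebl2 siRNA replicate 1 (-0.42, edgeR adjusted p = 0.0399). The TFIIH helicases Ercc3 (0.05, SE 0.0492) and Ercc2 (-0.07, SE 0.237) and the damage verifier Xpa (-0.01, SE 0.114) had log2 fold changes near 0. Ercc3 nonetheless lay above in every Crebl2 siRNA library, at 129, 124 and 124 CPM, against 123, 120 and 122 CPM in Luc siRNA libraries.

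Of the checkpoint genes, Atm, the kinase that answers broken ends, rose, while Atr, its counterpart at stalled forks, did not pass the test. Atm (chr9:53439149-53536740, minus strand) stood at 61.2, 84.5 and 75.1 CPM in Crebl2 siRNA libraries, against 60.6, 46.2 and 50.5 CPM in Luc siRNA libraries (log2 fold change 0.49, SE 0.103, edgeR adjusted p = 0.00123). The groups were parted only by 61.2 and 60.6 CPM, both from replicates numbered 1. Atr stood at 63.0, 67.8 and 73.7 CPM in Crebl2 siRNA libraries, against 73.2, 71.4 and 71.1 CPM in Luc siRNA libraries (log2 fold change -0.08, SE 0.0611, edgeR adjusted p = 0.349), and its partner Atrip had a log2 fold change of 0.16 (SE 0.19). Topbp1, which switches ATR on, stood at 307, 317 and 322 CPM, against 283, 273 and 278 CPM in Luc siRNA libraries (log2 fold change 0.18, edgeR adjusted p = 0.00467). The effector kinase Chek2 had a log2 fold change of 0.07 (SE 0.0628).

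**Figure D3:**
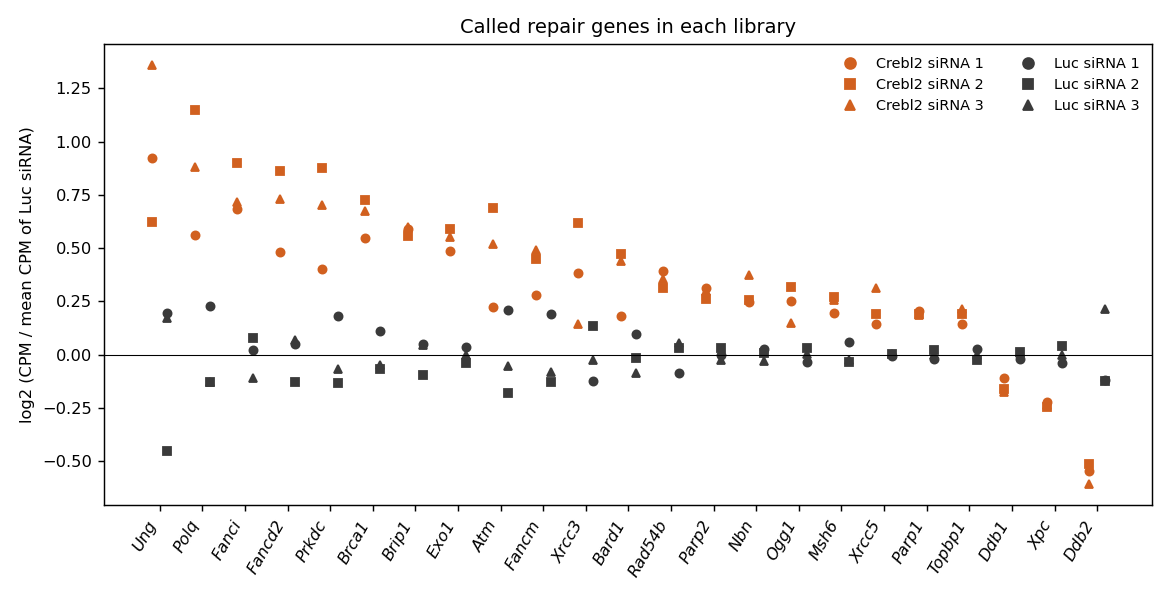
For each of the 23 called repair genes, ordered by fold change, the log2 ratio of its CPM in each library to its mean CPM in Luc siRNA libraries is shown, with Crebl2 siRNA libraries in orange and Luc siRNA libraries in black. Circles, squares and triangles are replicates 1, 2 and 3. The groups do not overlap for any of these genes, and replicates spread most for Ung, Polq, Prkdc and Atm.

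Members with long transcripts varied with the library as well as with the siRNA. Of 16 tested members whose main row spans at least 5000 bases, 10 rose and 0 fell (1 lay lower at an unadjusted p under 0.05, and DESeq2 and limma called 0 lower), and of 28 shorter members 10 rose. Over all 2064 tested genes of that length, 22.4% rose and 24.1% fell. The long members lay below their group mean in Crebl2 siRNA replicate 1 in 15 of 16 cases, with a median deviation of -0.12 on the log2 scale, and in Luc siRNA replicate 2 in 14 of 16 cases, with a median of -0.07. In Luc siRNA replicate 1 their median deviation was 0.04. Shorter members had medians from -0.02 to 0.01 in all libraries. Without replicate 1 of both groups, an alternative chosen after seeing the data, the difference was larger in Prkdc (log2 fold change 0.89 against 0.67), Atm (0.72 against 0.49), Polq (1.15 against 0.88) and Fancm (0.58 against 0.41). In these 4 genes Crebl2 siRNA replicate 1 was the lowest and Luc siRNA replicate 1 the highest of its group, so leaving them out had to enlarge the difference. In that setting 20 members were raised and 3 lowered, Rad50 being gained (edgeR adjusted p = 0.043) and Ogg1 lost (edgeR adjusted p = 0.0605). With an offset for transcript length in each library, likewise added afterwards, 20 rose and 4 fell.

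**Figure D4:**
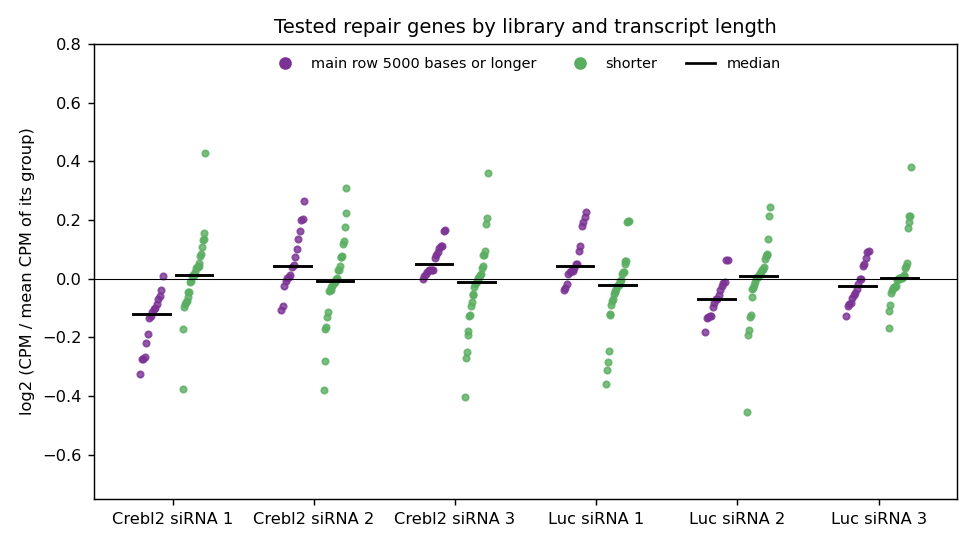
Each point is 1 of the 44 tested repair genes in 1 library, as the log2 ratio of its CPM to the mean of its group, with genes of 5000 bases or longer in purple (16) and shorter ones in green (28), and black bars for medians. The purple genes lie low in Crebl2 siRNA replicate 1, with a median of -0.12, and the green medians stay between -0.02 and 0.01.

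Levels can be set side by side only per length, here as CPM per kilobase of own bases of the main row. On that scale Ddb1 was the most abundant tested member in both groups, at 636 in Crebl2 siRNA libraries and 705 in Luc siRNA libraries, followed by Parp1 (141 in Crebl2 siRNA, 123 in Luc siRNA), Apex1 (90.4 in Crebl2 siRNA, 93.6 in Luc siRNA) and Msh6 (73.0 in Crebl2 siRNA, 61.6 in Luc siRNA). Brca1 had 19.7 in Crebl2 siRNA and 12.6 in Luc siRNA libraries, and Polq 2.06 in Crebl2 siRNA and 1.12 in Luc siRNA libraries. Among the tested members with at least 200 own bases, Fancc (0.501 in Crebl2 siRNA, 0.314 in Luc siRNA) and Xrcc6 (0.493 in Crebl2 siRNA, 0.611 in Luc siRNA) were lowest. Their position depends on how own bases are covered, so the order of neighbours is approximate.

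Other genes of the same pathways were taken from lists of each pathway's genes, also drawn up with earlier results known. Of 89 tested genes of these lists, 28 rose (31.5%) and 4 fell (4.49%), with a median log2 fold change of 0.08. Over all genes tested 18.8% rose and 20.1% fell. In homologous recombination 6 of 16 rose and 1 fell. Dna2, a resection nuclease, averaged 34.3 ± 0.909 CPM in Crebl2 siRNA libraries and 20.8 ± 0.268 CPM in Luc siRNA libraries (SD, n = 3 each; log2 fold change 0.72, edgeR adjusted p = 2.99e-07). Sfr1, a cofactor of recombination, fell (log2 fold change -0.35). In checkpoint signalling 7 of 17 rose and 1 fell, with the ATR mediator Clspn at 84.0 ± 2.40 CPM in Crebl2 siRNA and 56.0 ± 2.39 CPM in Luc siRNA libraries (log2 fold change 0.58, edgeR adjusted p = 5.05e-07), and the clamp subunit Hus1 (0.37) and the scaffold Mdc1 (0.27) also raised. Of the other Fanconi genes 3 of 10 rose, namely the nuclease Fan1 (0.36), Faap24 (0.55) and the conjugating enzyme Ube2t (0.27).

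Other nucleotide excision genes included raised ones. Of 14 tested, 5 rose and 1 fell, and Ercc8, which acts where transcription stalls, stood at 11.5 ± 0.54 CPM in Crebl2 siRNA libraries and 6.65 ± 0.48 CPM in Luc siRNA libraries (SD, n = 3 each; log2 fold change 0.79, edgeR adjusted p = 9.09e-06). The nuclease Ercc5 (0.36) and the TFIIH subunit Gtf2h2 (0.36) rose as well. In mismatch repair Pms1 (0.63) rose, and in end joining 2 of 9 other genes (22.2%) rose, Shld2 (0.34) and Trp53bp1 (0.35). In base excision 3 of 14 (21.4%) rose and 1 fell, both shares of raised genes being near the 18.8% over all genes tested, with the glycosylases Nthl1 (0.52) and Neil3 (0.36) raised and Smug1 (-0.24) lowered. Of 6 tested genes of translesion synthesis and direct reversal, edgeR, DESeq2 and limma each called 0, and 1 had an unadjusted p under 0.05 in edgeR. The smallest edgeR adjusted p was 0.0533, for the primase Primpol (log2 fold change -0.25).

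Genes of DNA synthesis itself were mostly raised. Of 31 tested genes of replication licensing and forks, 19 rose (61.3%, against 18.8% over all genes tested) and 0 fell, against 20.1%. At an unadjusted p under 0.05, 1 lay lower, and DESeq2 and limma called 0 lower. The median log2 fold change was 0.28, and the clamp Pcna (0.43), the clamp loader subunit Rfc5 (0.47) and the origin factor Orc1 (0.58) were among the raised. Among 16 tested p53 targets, which damage can induce, 3 rose and 3 fell (18.8% each, close to the shares over all genes tested): Gadd45a (-1.08) and Btg2 (-0.57) were lowered and Sesn2 (0.47) was raised. Whether a change in the share of cells in S phase has a part in the repair gene values was not tested.

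**Figure D5:**
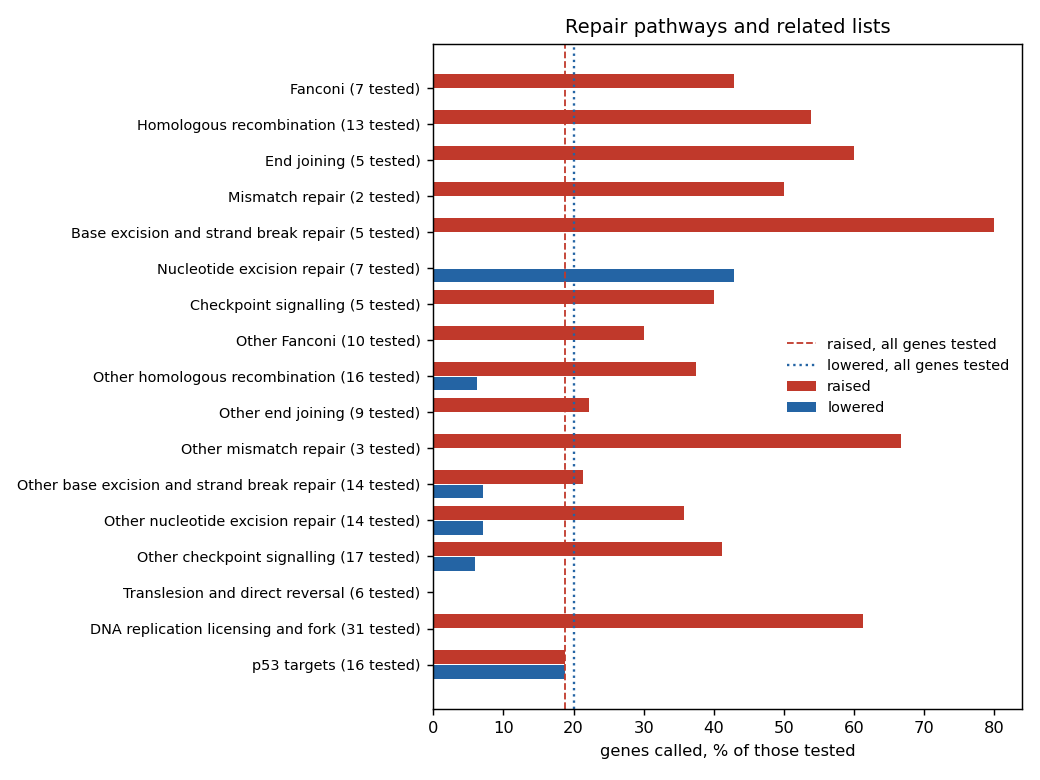
Bars give the percent of tested genes raised (red) and lowered (blue) in each repair pathway of the members, in the other repair lists, and in the replication and p53 target lists. The dashed and dotted lines mark 18.8% raised and 20.1% lowered over all genes tested. Nucleotide excision repair among the members has only a lowered bar, and the replication list reaches 61.3% raised.

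The members were also searched for GAAATGT, a 7-base word in the 3′ UTR chosen with earlier results known. Its shares are therefore a description and not an independent test. Over all genes with a 3′ UTR the word stood in 297 of 1904 raised genes (15.6%), 1222 of 5824 uncalled genes (21%) and 692 of 2188 lowered genes (31.6%), without regard to UTR length. Among the members it was present in 1 of 3 lowered, namely Xpc, in 3 of 21 uncalled and in 3 of 20 raised, namely Brca1, Bard1 and Fancm.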

How the data were processed

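RNA from 6 libraries of Hepa1-6 cells, made with a stranded total RNA kit per the labels, was sequenced. Each deposited table lists raw counts for 58611 Ensembl transcripts of 1 library, without normalisation. Trim Galore, TopHat and HTSeq and the builds mm9 and GRCm38 are named in the submitters' processing notes. Versions, settings and the use of strand are not given in the sources used here, so reads of overlapping genes on opposite strands may not be separable.

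Rows were matched to GENCODE M21 (GRCm38; 58264 matched, 347 did not) and the deposited counts were summed per gene. In 41 of 44 tested members over 90% of counts came from 1 row. Genes were tested with the two-sided quasi-likelihood test of edgeR 4.0.16 in R 4.3.3, with TMM scaling, filterByExpr and Benjamini-Hochberg adjustment over 11616 genes, and called at an adjusted p under 0.05. SE values were derived from the fold change and F statistic. CPM used TMM-scaled library sizes. DESeq2 1.42.0 and limma 3.58.1 served as alternatives, and each tool was tested on simulated data. Count limits cover counting error only.

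Members and lists were chosen with earlier results of these data known. The text names every member, up to 3 called genes per other list by smallest p (1 where none was called), and marker genes. Some genes that this rule names are not reported here.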

Additional observations from a re-analysis of the deposited data

How the results depend on the processing

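Under 19 alternative settings, 3 of them chosen after seeing the data, the members raised numbered 17 to 22 and those lowered 1 to 4, apart from the 1.2-fold test, a stricter question (8 raised, 0 lowered). For all genes changed, 4518 in the report, the 1.2-fold test gave 1626. With replicates left out in turn, 18 to 21 members rose, 1 to 4 fell, all genes changed ran from 3639 to 4640, and the members' median log2 fold change ran from 0.18 to 0.24. That median was 0.25 with library size alone, 0.22 without a filter and 0.18 without replicate 1 of both groups. Same-numbered replicates did not vary together (correlations of deviations from group means -0.173, -0.061 and -0.107), so the numbers were not taken as pairs. With the replicate block, 20 members rose, 2 fell and 3983 genes changed, and among the members the Ddb1 call was lost (edgeR adjusted p = 0.0536). The Crebl2 fold change kept its direction and its call in all settings run. Of the 23 called members, 8 were called in every setting that tested them, 10 were lost in the 1.2-fold test and no other, and 5 (Xrcc3, Ung, Ogg1, Ddb1 and Ddb2) also in others. Leaving out genes with the 3′ UTR word removed the called Brca1, Bard1, Fancm and Xpc and the uncalled Ercc2, Chek2 and Lig4. In that setting 17 members were raised and 3 lowered, Mre11a then being called (-0.23, edgeR adjusted p = 0.0428). Signs turned for 4 uncalled members, the cause of which was not tested: Wrn with library size alone (0.0023), without Crebl2 siRNA replicate 1 (0.075) and without replicate 1 of both groups (0.085), with -0.11 as its lowest value on leaving out a replicate. Lig4 turned without Crebl2 siRNA replicate 3 (-0.028; highest 0.12). Ercc2 turned without Crebl2 siRNA replicate 1 (0.09), Luc siRNA replicate 1 (0.042) or both (0.2; lowest -0.25). Xpa turned with library size alone (0.035) and without Crebl2 siRNA replicate 1 (0.035) or 2 (0.045) or Luc siRNA replicate 2 (0.019; lowest -0.12). Low counts limit the 9 untested members and those with few own bases. For Msh3, with 0 own bases, and Fancb, with 3, greater depth would not help if rows count only own bases, as appears to be so.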
